A study of Ambystoma mexicanum with 7 samples.

Results

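The mid-bud blastema of the regenerating axolotl limb was described here by the microRNAs (miRNAs) detected in 3 blastemas, which are 3 of the 7 sample records of the series. The blastemas came from 3 white axolotls (Ambystoma mexicanum; animals 368, 369 and 378) and were collected 17 days after amputation of the hindlimb (17 dpa). All 3 blastema RNAs were hybridized on 2 array platforms, and each blastema was 1 sample of 1 animal. The age and genotype of the animals beyond their white colour were not given in the sources used here. Limb stumps taken from the same animals at amputation were not compared with the blastemas. A further record, titled Stump vs Blastema [LC], stands for blastema and stump pairs on LC Sciences arrays. On LC Sciences arrays the blastema of animal 368 was labelled with Cy3 and those of animals 369 and 378 with Cy5, so that dye and animal cannot be told apart there. On Exiqon arrays all 3 blastemas were labelled with the dye Hy3.

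MiRNAs are short RNAs that lower the output of messenger RNAs they pair with, mainly through the seed at bases 2 to 8 from their 5′ end, so that miRNAs with the same seed share many targets. A blastema is the mound of dividing cells that gathers under the wound epidermis of an amputated salamander limb and from which the lost part grows. At the mid-bud stage it holds undifferentiated mesenchyme under a thick epidermis, with vessels, blood and ingrowing nerve. Because the RNA came from whole tissue, fewer cells of a type and less RNA per cell cannot be told apart in any level below. A level is a probe signal, which depends on the probe as well as on the amount of miRNA. The order of levels is therefore an order of signals and not of molecules.

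The LC Sciences array held 1974 miRNA probes, designed to sequences of human, opossum, chicken, frog and zebrafish among other species, under 1393 miRNA names. The level of a name was the median over its probes after signals under 32 were set to 32. In all 3 blastemas 150 names (10.8%) reached 32 and 119 reached 100, while 1139 names reached 32 in no animal. The number of names over 32 was 165 in animal 368, 204 in animal 369 and 216 in animal 378. With 1 seed taken for each name, the 150 names had 79 different seeds. Targets shifted by 1 base count separately in this number, and names such as miR-31 also hold targets with another seed. The 10 leading names took 41.8% of the summed level of all names and the 25 leading names took 58.9%, with names under 32 in any animal contributing 16.7% through the floor itself.

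The probe targets of the leading miRNAs are given here because they decide which version of a miRNA was read in axolotl RNA. The seed is in capitals, and the prefix names the species of the sequence (hsa, human; gga, chicken; dre, zebrafish; xtr, frog; mdo, opossum).
hsa-miR-21: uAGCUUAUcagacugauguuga
dre-miR-21: uAGCUUAUcagacugguguuggc
gga-miR-203: gUGAAAUGuuuaggaccacuug
hsa-miR-203: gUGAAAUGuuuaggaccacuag
dre-miR-203b: gUGAAAUGuucaggaccacuug
hsa-miR-205: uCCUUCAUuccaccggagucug
hsa-miR-23a: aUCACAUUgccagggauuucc
hsa-miR-23b: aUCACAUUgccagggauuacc
hsa-let-7a: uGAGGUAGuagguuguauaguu
hsa-let-7f: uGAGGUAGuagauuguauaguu
gga-let-7k: uGAGGUAGuagauugaauaguu
hsa-miR-125b: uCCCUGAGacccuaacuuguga
hsa-miR-26a: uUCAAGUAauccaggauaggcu
hsa-miR-199a-3p: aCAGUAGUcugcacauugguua
hsa-miR-206: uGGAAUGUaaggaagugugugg
xtr-miR-451: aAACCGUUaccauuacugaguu
mdo-miR-451: aAACCGUUaccauuacuguguu

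MiR-21 gave the highest mean level. This miRNA is known in mammals to repress inhibitors of proliferation and of cell survival. Its level was 27308 in animal 368, 34814 in animal 369 and 42322 in animal 378, a mean of 34815 ± 7507 (SD, n = 3). It took 11.0%, 14.5% and 17.9% of the summed level of these animals and was the highest name in animals 369 and 378. In animal 368 it came second to miR-1599, which is described with the other unusual names below. The 6 miR-21 probes fell into 2 target sequences that share the seed. The 4 probes of the human sequence averaged 28520, 41300 and 44769 in animals 368, 369 and 378. The 2 probes of the zebrafish sequence, which differs by A16G and A22G (the first base is that of the human sequence, and positions count from 1 at the 5′ end) and is 1 base longer, averaged 2001, 1782 and 6739. The human sequence was thus read 10.9 times as brightly as the zebrafish sequence, and the probe groups did not overlap in any animal.

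**Figure D1:**
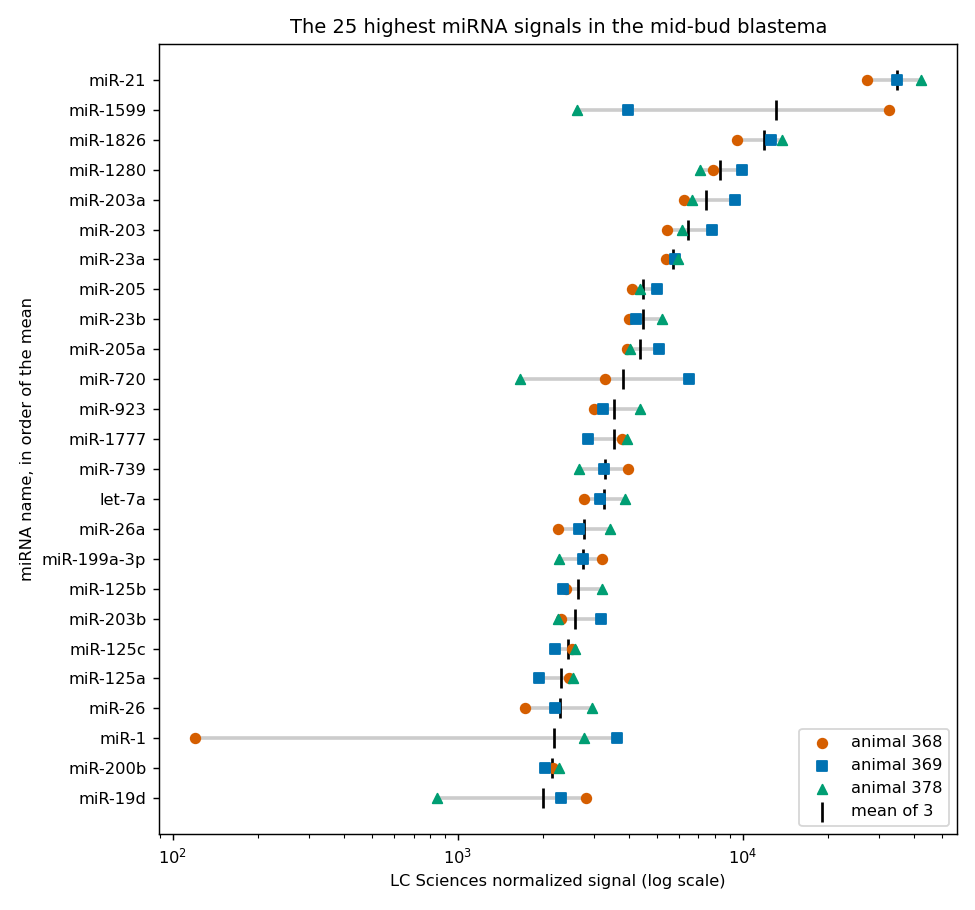
LC Sciences normalized signal (x axis, log scale) of the 25 names with the highest mean (y axis) in the blastemas of animals 368 (circles), 369 (squares) and 378 (triangles), with the mean of 3 as a vertical mark and the range as a grey line. MiR-21 lay between 27308 and 42322, while miR-1599, miR-720, miR-1 and miR-19d had the widest ranges.

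Epithelial miRNAs followed. MiR-203, which in mouse skin limits the growth of epidermal progenitors, was at 5429, 7794 and 6150 in animals 368, 369 and 378, and the zebrafish name miR-203a was at 6242, 9373 and 6639. MiR-205, an miRNA of stratified epithelia, was at 4078, 5009 and 4370, and miR-205a, whose probes have the same target, was at 3942, 5092 and 4025. The 3 animals lay within a CV of 10.6% to 23.0% for these 4 names. As medians over probes, the names miR-203 and miR-205 did not overlap in level. The probe of the human miR-203 sequence alone was at 3466, 4624 and 3612, which overlaps miR-205. MiR-200b, which in mammals maintains the epithelial state, was at 2158, 2019 and 2275, with a CV of 6.0%. Of 11 names in the epithelial list 10 reached 100 in all 3 blastemas, against 119 of all 1393 names. The same 10 were the only names of the list that reached the lower floor in all 3. Their median level was 2363, against 405 over all 150 names that reached the floor. The list took 15.7% of the level summed over those names, in part because miR-203 and miR-205 each appear under several names with nearly the same target.

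MiR-23a and miR-23b share a seed and belong to clusters with miR-24 and miR-27 that are active in many tissues. On LC Sciences they were among the steadiest of the bright names. MiR-23a was at 5396, 5787 and 5925 in animals 368, 369 and 378 (CV 4.8%), and miR-23b was at 3987, 4216 and 5231. As medians over probes these levels did not overlap on LC Sciences. Their targets differ by U19A, and over the probes of those exact 21-base targets the miR-23a sequence was read 1.31 times as brightly. In the same order of animals these targets were at 5745, 6037 and 7384 for miR-23a and at 4309, 4483 and 5826 for miR-23b. They overlapped between animals, although miR-23a was higher in each animal. The opossum miR-23a probes were at 3397, 2976 and 3565. Exiqon levels also overlapped between animals, with miR-23a at 1075, 1489 and 1588 and miR-23b at 906, 1237 and 1321. All 10 names of the miR-23, miR-24 and miR-27 list reached 100 in all 3 blastemas, against 119 of all 1393 names. MiR-27b averaged 800 ± 93 and miR-24 averaged 715 ± 251 (SD, n = 3 each). MiR-24 was higher in animal 368 (1002) than in animals 369 and 378 (608 and 535) on LC Sciences, but lowest there on Exiqon (476, 599 and 647). Exiqon signals were not scaled between arrays and were generally lower in animal 368.

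The let-7 family has members that accumulate in differentiated cells and repress growth genes. Of 12 names in its list 8 reached 32 in all 3 blastemas, against 10.8% of all names. All 8 carry the seed shown for let-7a. Let-7a was at 2773, 3169 and 3861 in animals 368, 369 and 378, let-7f at 1657, 1610 and 2108, let-7c at 1541, 1492 and 1467, and let-7b at 1316, 1064 and 1033. On LC Sciences let-7c had the lowest CV (2.5%) of the names that reached 100. As medians over probes the ranges of these 4 members did not overlap there, although let-7f and let-7c lay close together. Single probes of these 2 did overlap, with a human let-7c probe at 1774, 2000 and 1707 and an opossum let-7f probe at 1640, 1399 and 1764. Exiqon gave another order, with means of 797 for let-7a, 575 for let-7c, 441 for let-7b and 177 for let-7f. Let-7a and let-7f differ by G12A and were read at a ratio of 1.82 over the probes of those targets. The level of miR-98, which shares their seed in other species, was 32 in all 3 blastemas on LC Sciences. Its mean on Exiqon was 170, and it was above every negative control on all 3 arrays.

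MiR-125b, a vertebrate relative of the worm timing miRNA lin-4 that lies in clusters with let-7, was at 2395, 2349 and 3222 in animals 368, 369 and 378. MiR-125c and miR-125a, with the same seed, averaged 2433 ± 207 and 2310 ± 337, and the 3 names overlapped. MiR-100 from the same clusters was much dimmer at 193 ± 44. MiR-26a, which in mammals restrains growth and represses the histone methyltransferase EZH2, averaged 2787 ± 596, and the frog name miR-26 averaged 2291 ± 625 (SD, n = 3 each). Both miR-26 names were lowest in animal 368 and highest in animal 378.

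Mesenchymal miRNAs were bright as well. MiR-199a-3p, of a cluster expressed with miR-214 in limb mesenchyme and fibroblasts, was at 3214, 2744 and 2273 in animals 368, 369 and 378, and miR-214 was at 2157, 1480 and 1388. MiR-199a-5p, from the other arm of the same hairpin, was at 1051, 665 and 313. These 3 names were highest in animal 368 and lowest in animal 378 on LC Sciences, where dye and animal cannot be told apart. Exiqon gave the opposite order, with miR-199a-3p at 365, 458 and 499, miR-214 at 311, 387 and 455, and miR-199a-5p at 494, 633 and 700. Its signals were not scaled between arrays. Over the 545 vertebrate names above the negative controls the median ratio of animals 369 and 378 to animal 368 was 1.13. On LC Sciences it was 0.86 over the 150 names, so that the order of animals cannot be compared directly between platforms. MiR-145, known from smooth muscle and fibroblasts, averaged 760 ± 224. For the cartilage miRNAs the reading depended on the arm and the platform. MiR-140 was at 32 in all 3 blastemas on LC Sciences, and miR-455 reached 62 in animal 369 and 32 in the others. The opposite arm miR-140* was read at 170, 605 and 141, a CV of 85.3%, with animal 369 alone high. The names miR-140-3p, for that same arm, and miR-455-3p, both named after their values were seen, also reached 32 in each animal, at 161, 512 and 92 and at 59, 108 and 59. Exiqon read miR-140 at 147, 283 and 182, above every negative control and again highest in animal 369. Of 19 names in the connective tissue and cartilage list 11 reached 32 in all animals, against 10.8% of all names.

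Names with a star, given to the arm of a hairpin thought to be the less abundant, were rarely detected. Of 252 names with a star 5 (2.0%) reached 32 in all 3 blastemas, against 145 of 1141 other names (12.7%). The 5 were miR-199a*, miR-199*, miR-140*, miR-145* and miR-200b*, all from hairpins of the mesenchymal, cartilage or epithelial lists. MiR-199a* was the brightest at 1935, 1885 and 1353. MiR-199a* and miR-199* are older names for the arm of miR-199a-3p, with a target that starts 1 base earlier, and miR-140* is the arm of miR-140-3p, so a star does not mark a passenger strand in these cases.

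Proliferation-linked families were present at intermediate levels. The miR-17-92 cluster and related clusters promote the cell cycle in mammals. Of their 25 names 18 reached 32 in all 3 blastemas, against 10.8% of all names. The median level of 410 among them was close to the 405 over all 150 names. MiR-19d led them at 2824, 2302 and 847 in animals 368, 369 and 378, followed by miR-25 (1313 ± 220), miR-93 (672 ± 271) and miR-92a (585 ± 183; SD, n = 3 each). MiR-19d overlapped miR-25 because animal 378 was low on LC Sciences. Exiqon, not scaled between arrays, read miR-19d at 386, 483 and 592, highest in animal 378. The family of miR-195, miR-15 and miR-16, which represses cyclins, had 7 of 12 names at or over 100, against 119 of all 1393 names. MiR-195 was nearly level across animals on LC Sciences at 753, 751 and 695. MiR-221 and miR-222, which repress inhibitors of the cell cycle, were at 181 ± 39 and 239 ± 108. MiR-130b averaged 1212 ± 150 and was the single name of 10 in its list to reach 32 in all 3 blastemas, against 10.8% of all names. Exiqon read miR-130c (mean 462) and miR-130a (283) above miR-130b (230). There 9 of 11 names of this list were above every negative control, against 55.6% of all vertebrate names.

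MiR-31, an miRNA of keratinocytes, was at 2180, 1239 and 862 in animals 368, 369 and 378. MiR-193b (2072, 899 and 923) and miR-181a (1116, 538 and 509) likewise had animal 368 above both others. Among the 119 names at or over 100, 12 were more than 2 times as high in animal 368 as in the mean of animals 369 and 378. Apart from miR-1599, which was 9.87 times as high, the ratio reached at most 2.38 (miR-222a). For miR-31, miR-193b and miR-181a no such excess was read on Exiqon, where miR-31 was at 416, 484 and 483, miR-193b at 210, 218 and 272, and miR-181a at 153, 152 and 177. MiR-1599 had no Exiqon value to compare. Dye and animal cannot be told apart in the LC Sciences values.

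The miR-30 family had all 6 names at or over 100, against 119 of all 1393 names, and was led by miR-30c at 1007 ± 183. Of the miRNAs that lie inside Hox gene clusters, miR-10b alone of 7 names reached 32 in all 3 blastemas on LC Sciences, at 222, 169 and 189, against 10.8% of all names. All 8 Hox cluster names on Exiqon were above every negative control on all 3 arrays, against 55.6% of all vertebrate names. MiR-10b averaged 271 there. The other names of the LC Sciences list averaged 128 to 149, near the highest negative controls (116, 117 and 128 on the arrays of animals 368, 369 and 378).

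**Figure D2:**
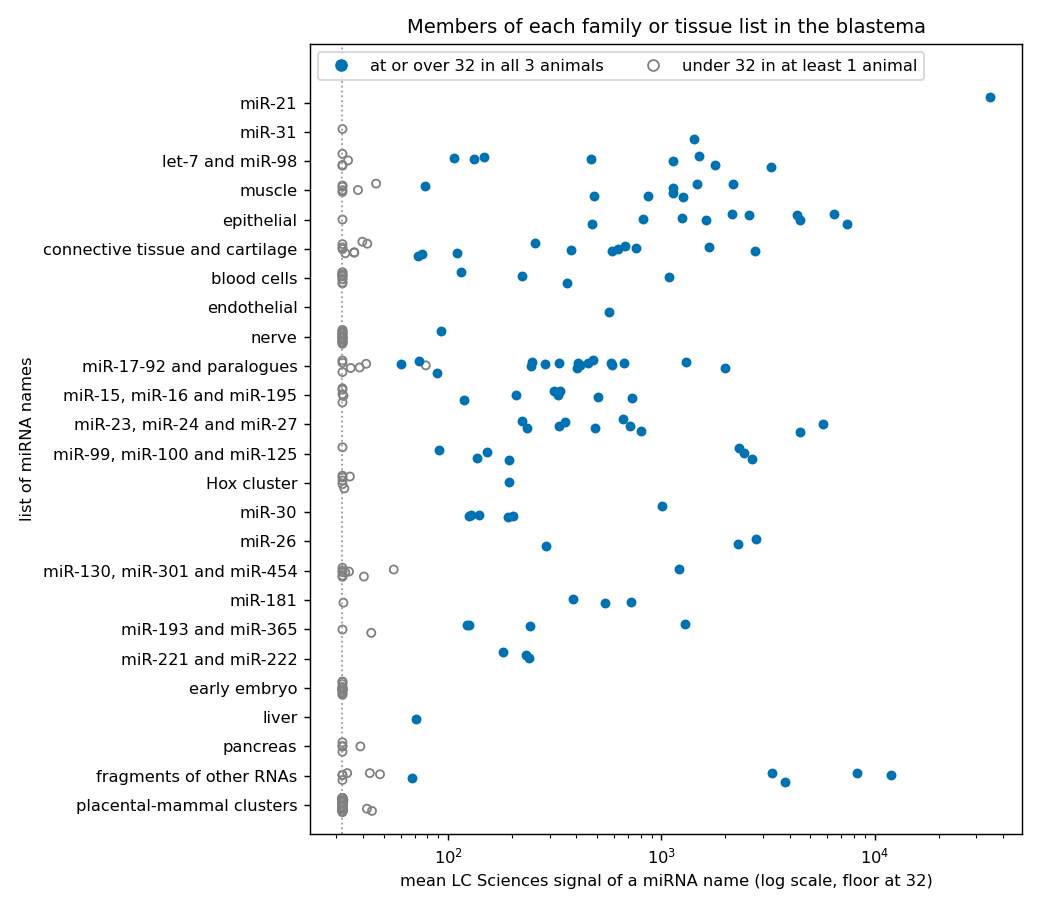
Mean LC Sciences signal over 3 blastemas (x axis, log scale) of each miRNA name in 25 family or tissue lists (y axis). Filled circles are names at or over 32 in all 3 animals, open circles are names under 32 in at least 1 animal, and the dotted line marks the floor of 32. The epithelial and miR-23, miR-24 and miR-27 lists lay above the floor except for 1 epithelial name, while the nerve, early embryo, pancreas and placental-mammal lists lay on or near it.

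Muscle miRNAs separated the blastema of animal 368 from the other 2. MiR-1 and miR-206 share a seed and are made in muscle, and the miR-133 names are made from the same transcripts. These names were read in all 3 animals. Of the 14 names of the muscle list 8 reached 32 in each animal, against 10.8% of all names. MiR-1 was at 120 in animal 368, against 3635 and 2766 in animals 369 and 378. MiR-206 was at 213, 1676 and 2529 in the same order, miR-133a at 166, 1177 and 1257, and miR-133b at 197, 1496 and 1714. MiR-499-5p, encoded in a myosin gene and named after its values were seen, was at 37, 108 and 88. The mean of animals 369 and 378 was 26.7 times the level of animal 368 for miR-1, 9.89 times for miR-206, 7.33 times for miR-133a and 8.15 times for miR-133b. Over the 8 muscle names that reached 32 in all 3 blastemas the median ratio was 8.16, against 0.86 over all 150 names. In animal 368 miR-1 ranked 122, whereas it ranked 12 and 16 in animals 369 and 378. MiR-208, a miRNA of heart muscle, was at 32 in all 3.

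MiR-451, which is made in red blood cells, shifted in the same direction. It was at 389 in animal 368, 1463 in animal 369 and 1410 in animal 378, a ratio of 3.70. Only 7 names at or over 100 in all 3 animals had a ratio over 3, namely miR-451 and 6 muscle names. The next of these names was miR-140* at 2.20. This count leaves out names under 100 in animal 368 itself. Among them were miR-1a, named after its values were seen (64.5, 2043 and 1689, a ratio of 28.9), and miR-499-5p (2.65). Among other blood and vessel miRNAs miR-126, which lies in the endothelial gene Egfl7, was at 420, 443 and 843, and miR-223 of myeloid cells was at 265, 192 and 624. Both were highest in animal 378, and animals 368 and 369 were close together. MiR-150 (221 ± 49) and miR-155 (116 ± 48) of white cells reached 32 in all 3 on LC Sciences. There miR-144, which is made with miR-451, and miR-142-3p of white cells were at 32. Exiqon, not scaled between arrays, read miR-144 at 125, 184 and 173, above every negative control on all 3 arrays. On LC Sciences the level summed over the epidermal markers miR-203, miR-205 and miR-200b was 11665, 14822 and 12795 in animals 368, 369 and 378. That of the fibroblast markers miR-199a and miR-214 was 3059, 2158 and 1688. The 5 muscle markers, of which 4 reached 32 in all 3 blastemas, summed to 728, 8035 and 8319. On Exiqon the muscle markers summed to 764, 2824 and 3188, the epidermal markers to 2061, 2631 and 2783, and the fibroblast markers to 805, 1019 and 1155. Animal 368 was thus highest in fibroblast markers on LC Sciences and lowest on Exiqon. Exiqon signals were not scaled between arrays, and animal 368 was lowest there in each of these marker groups.

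The same animal was low on Exiqon, where the dye was the same for all. MiR-1 gave 162 in animal 368, against 761 and 749 in animals 369 and 378. MiR-206 gave 156, 340 and 447, miR-133a 161, 743 and 878, miR-133b 165, 788 and 917, and miR-499-5p 127, 248 and 253. MiR-451 gave 350, 945 and 938. The highest of the negative control probes was at 116, 117 and 128, so that the muscle names of animal 368 were little above it. Over the 545 vertebrate names above every negative control the median ratio of animals 369 and 378 to animal 368 was 1.13. Only 344 vertebrate names were over the mean plus 3 SD of the negative controls. A ratio over 2 was found for 11 names, of which 10 were muscle names or miR-451. The other was miR-700, a mouse name chosen after its value was seen (491, 836 and 1239). The 10 names are not all separate readings. MiR-133a and miR-133 had the same values on every array, as did miR-133c and miR-133d. The array of animal 368 had 1584 spots with a poor flag, against 214 and 205 on the arrays of animals 369 and 378, and flagged spots were left out. Whether muscle at the cut end, or blood, was collected in unequal amounts with the 3 blastemas was not tested.

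**Figure D3:**
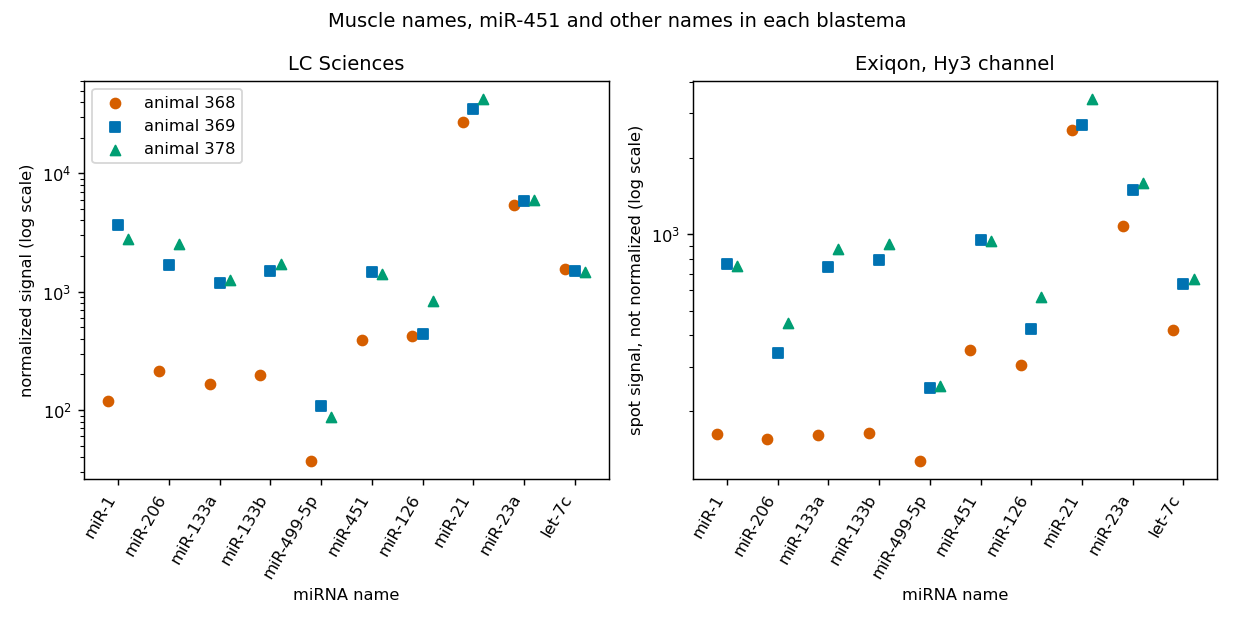
Signal of muscle names, miR-451 and 4 other names in the blastemas of animals 368 (circles), 369 (squares) and 378 (triangles), on LC Sciences (left, normalized signal, log scale) and Exiqon (right, Hy3 spot signal, log scale). MiR-1 was at 120, 3635 and 2766 on LC Sciences and at 162, 761 and 749 on Exiqon. Let-7c lay between 1467 and 1541 on LC Sciences and between 421 and 668 on Exiqon.

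Most of the other names varied less between the animals. Among names at or over 100, however, miR-1599 (CV 130%) and miR-140* (85.3%) varied more than every muscle name. The median CV over the 150 names was 25.02%, with quartiles of 17.0% and 38.5%. It was 23.1% over the 141 names left without muscle names and miR-451, and 16.7% without animal 368. Pearson's r of log2 levels over 150 names, which share arrays and are not independent, was 0.88 between animals 368 and 369, 0.85 between 368 and 378, and 0.96 between 369 and 378. Without muscle names and miR-451 it was 0.96, 0.94 and 0.95. Of the 25 leading names of each animal 20 were shared by all 3. On LC Sciences the 5 steadiest names at or over 100 were let-7c, miR-195, miR-23a, miR-200b and let-7g, with CVs of 2.5% to 6.1%. On Exiqon, not scaled between arrays, their ratios of animals 369 and 378 to animal 368 ran from 1.23 (let-7g) to 1.55 (let-7c). The median ratio there was 1.13 over the 545 names above the negative controls. The 5 most variable on LC Sciences were miR-1599, miR-140*, miR-1, miR-206 and miR-133b, with CVs of 72.2% to 130%. Spiked control RNA (PUC2PM) read 32610 in animal 368, 90713 in animal 369 and 67813 in animal 378 in the same table. It was thus lowest in the Cy3-labelled blastema, whereas 79 of the 150 names were highest there. The control hsa-5S-b1 was also highest in animal 368 (3729, 2718 and 1849). The controls hsa-5S-b3 (2931, 5346 and 1662) and hsa-5S-b2 (1833, 1722 and 2060) were highest in animals 369 and 378.

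Several of the brightest names are not typical miRNAs. MiR-1826 averaged 11931 ± 2162, miR-1280 averaged 8314 ± 1510, miR-739 averaged 3295 ± 649 and miR-720 averaged 3812 ± 2458 (SD, n = 3 each). These names are now regarded as fragments of ribosomal RNA, transfer RNA or other RNAs. Of the 11 such names in the list 5 reached 32 in all 3 blastemas, against 10.8% of all names. These 5 took 13.6% of the level summed over the 150 names. MiR-720 was at 3285, 6492 and 1661 in animals 368, 369 and 378 on LC Sciences. Exiqon signals, not scaled between arrays, were 2499, 2924 and 3215, with a different order of animals. MiR-1599, a chicken name whose target ends in a run of adenosines, was at 32589 in animal 368, against 3973 and 2628 in animals 369 and 378. It therefore ranked 2 by the mean on the strength of animal 368 alone, and without that animal its mean was 3301. The chicken name miR-1777, of which 90% of the bases are G or C, was at 3775, 2870 and 3926, and miR-923 was at 3004, 3237 and 4365. The targets of these names are given below. That of miR-1826 has 27 bases and those of miR-1280 and miR-720 have 17, against a median of 22 over targets at or over 32. The miR-739 and miR-923 targets, at 21 bases, are of usual length.
hsa-miR-1826: aUUGAUCAucgacacuucgaacgcaau
hsa-miR-1280: uCCCACCGcugccaccc
hsa-miR-720: uCUCGCUGgggccucca
dre-miR-739: aGGCCGAAguggagaaggguu
gga-miR-739: aGGCCGAAguggagcaggguu
gga-miR-1599: gGAGGGAGgaaaaaaaaaaa
gga-miR-1777: gUGGGCGGugcggggcggcg
hsa-miR-923: gUCAGCGGaggaaaagaaacu

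Probes of neighbouring sequences were read very differently. Probes with the same target repeated well, with a median ratio of the highest to the lowest of 1.14 over 122 targets and a highest ratio of 1.88. Over names whose probes had several targets the median SD of log2 signal between probes was 0.71 (74 names), against 0.11 for names with a single target (36 names). The median SD between animals over the same 110 names was 0.34. Of 78 pairs of targets that differ by a single base, with at least 1 of the pair over 32 in all 3 blastemas, none differed in the seed. The ratio of a pair was that of its brighter to its dimmer target, so that it is at least 1. Some pairs, such as let-7a and let-7g, are targets of different miRNAs, for which probe reading and amount cannot be told apart. The 52 pairs that differ between the seed and the last 3 bases had a median ratio of 5.68, and 30 of them differed over 4-fold. The 23 pairs that differ in the last 3 bases had a median ratio of 1.79, and the 3 pairs that differ in base 1 had a median ratio of 1.11.

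The 4 largest of these ratios, chosen for their size, came from miR-141, let-7 and miR-451. The zebrafish target of miR-141 was read at 3284, 2693 and 2043 in animals 368, 369 and 378, whereas the opossum target, which differs by C17A, was at 32, 42 and 32. Their means were 2673 and 35, a ratio of at least 75.6 because 2 of the dimmer values lay at the floor. The let-7c target and a let-7d target that differs by A10U were at least 47.6-fold apart. The frog sequence of miR-451 was read at 629, 2365 and 2484 in animals 368, 369 and 378, whereas the opossum sequence, which differs by A19U, was at 32 in all 3. This is at least 57.1-fold lower. A chicken miR-451 target 1 base longer at its 3′ end was at 155, 681 and 604, a ratio of 3.80. The human let-7f target and the target shared by let-7k and let-7e, which differs by U16A, were at least 58.1-fold apart. Among the other leading names, the zebrafish target of miR-739 was at 4195, 3543 and 2713 and its chicken target, which differs by A15C, was at 81, 123 and 113, a ratio of 33.0. For miR-203 the chicken target exceeded the human target (U21A) by 1.79 and the zebrafish miR-203b target (U11C) by 2.71, in every animal.

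On LC Sciences most nerve, early embryo and pancreas names were near the floor, as were most names of the array, of which 10.8% reached 32 in all 3 blastemas. Of 20 names in the nerve list 1 did so, namely miR-128 at 111, 83 and 84, whereas miR-124 and miR-9 were at 32. None of 14 early embryo names, which include the miR-302, miR-427 and miR-430 families of pluripotent cells and early amphibian and fish embryos, reached 32 in all 3. None of 5 pancreas names did so, and the liver miRNA miR-122 was at 75, 51 and 87. None of 87 names from clusters known from placental mammals reached 32 in all 3 blastemas. On Exiqon 17 of 22 nerve names, 9 of 14 early embryo names and 1 of 5 pancreas names were above every negative control on all 3 arrays. So were 38 of 93 names from the placental-mammal clusters. The share over all vertebrate names was 55.6%. MiR-212 of the nerve list, named after its values were seen, was at 550, 711 and 743 on Exiqon and at 32 on LC Sciences. A signal under 32 does not show that a miRNA is absent, since the frog and fish probes may not match the axolotl sequence.

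Exiqon gave a second view of the 3 blastemas, as the Hy3 signal of each spot averaged over the spots of a probe. MiR-21 ranked 3 of 980 vertebrate names at 2591, 2708 and 3416 in animals 368, 369 and 378. MiR-23a (1384 ± 272) ranked 9 and miR-23b (1155 ± 219) ranked 10 (SD, n = 3 each). Of the 25 leading LC Sciences names 20 had an Exiqon probe, all 20 were above every negative control on all 3 arrays, and 11 lay among the 50 leading Exiqon names. Over 135 names at or over 32 in all 3 LC Sciences blastemas that were also on Exiqon, Spearman's rho was 0.60 and Pearson's r of log2 levels 0.65. These names share samples and are not independent. They had a median Exiqon signal of 324, against 124 for the 609 names on both arrays that were under 32 in any LC Sciences blastema.

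**Figure D4:**
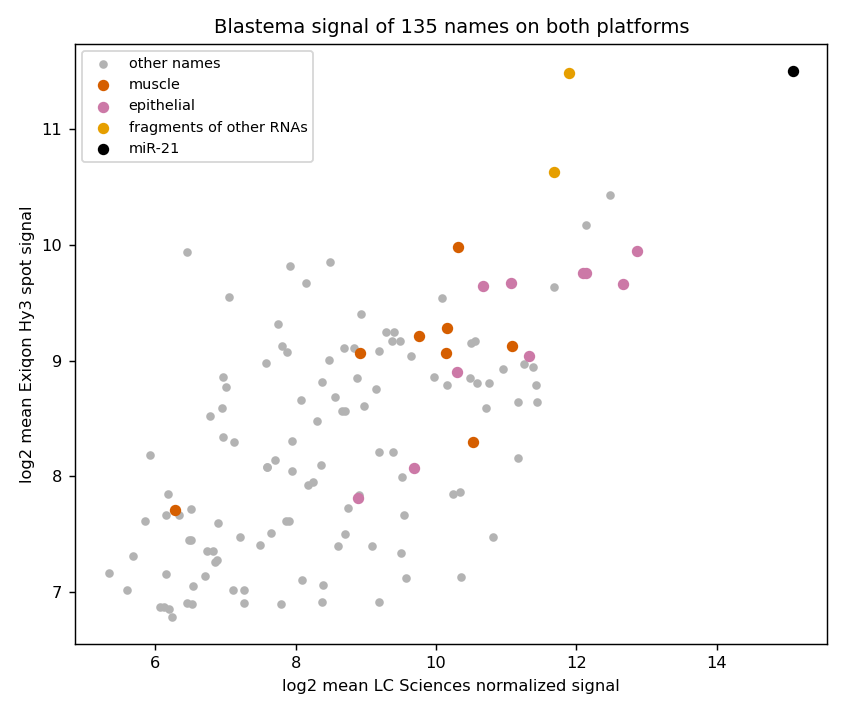
Log2 of the mean LC Sciences normalized signal (x axis) and of the mean Exiqon Hy3 spot signal (y axis) of 135 names in 3 blastemas, with muscle names, epithelial names, RNA fragments and miR-21 marked. MiR-21 was highest on both, and Spearman's rho was 0.60.

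The brightest Exiqon names were miR-494 and miR-668, at 5681, 9431 and 9819 and at 4688, 7196 and 7445 in animals 368, 369 and 378. Both belong to a cluster of placental mammals and were at 42 and 32 on LC Sciences. MiR-711 (1927 ± 485) and miR-207 (1539 ± 57), also among the 10 leading names, had no LC Sciences name. Let-7k was at 1107, 1782 and 1903 on Exiqon, whereas on LC Sciences it was at 34, while let-7a and let-7f were at 797 and 177 on Exiqon and at 3268 and 1792 on LC Sciences. MiR-142-3p was likewise at 550, 737 and 781 on Exiqon and at 32 on LC Sciences. Of 406 probes designed to plant miRNAs alone 167 (41.1%) were above every negative control on all 3 arrays, as were 63 of 139 virus probes (45.3%), 81 of 363 invertebrate probes (22.3%) and 579 of 1061 vertebrate probes (54.6%). Plant probes reached a mean of 7328. A signal above the negative controls was therefore also found for many probes of organisms other than vertebrates.

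Differences between the animals were set side by side on the platforms, with and without the muscle names and miR-451. For each name and animal the log2 deviation from the mean of the 3 animals was taken on both arrays. Pearson's r between platforms over 135 names was 0.80 for animal 368, 0.74 for animal 369 and 0.62 for animal 378. Over the 126 names left without muscle names and miR-451 it was 0.10, 0.44 and 0.23, and Spearman's rho was 0.06, 0.27 and 0.13. For animal 368 the correlation over 135 names thus depended on the 9 names left out, whereas animal 369 kept an r of 0.44 without them. These 9 names were set apart after the data were seen and include the largest deviations of animal 368. Leaving them out was bound to lower r for that animal, so no conclusion is drawn from the drop.

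**Figure D5:**
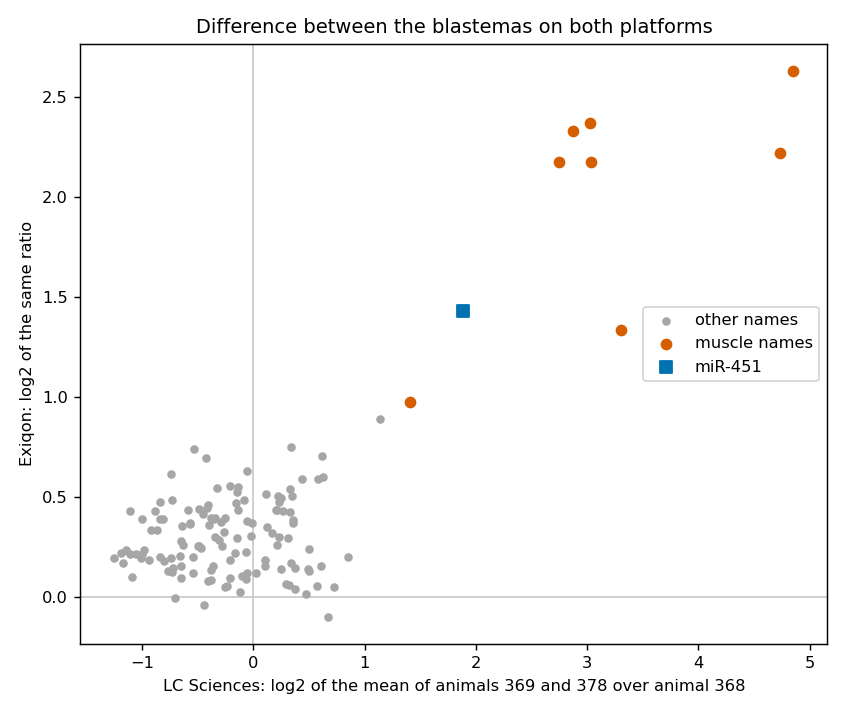
Log2 of the mean of animals 369 and 378 over animal 368 on LC Sciences (x axis) and Exiqon (y axis) for 135 names. The muscle names and miR-451 lay to the upper right, with ratios of 26.7 and 4.65 for miR-1, while the other names had log2 ratios under 1 on Exiqon.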

How the data were processed

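The 3 blastema RNAs of animals 368, 369 and 378 were processed by 2 companies. The LC Sciences values deposited by the authors are linear intensity values that the company normalized jointly for 6 samples, by a method that is not settled here (Lowess in the methods, a global normalization in array headers), in other words signals with no fixed unit. The Exiqon values deposited by the authors are spot intensity of the Hy3 channel from scanner files, with no background correction and no scaling between arrays. The stump columns (3) of the LC Sciences values were not used. Control reporters (12) were dropped, signals under 32 set to 32, names formed without the species prefix, the median taken over probes, and the mean, SD and CV over 3 animals (Python 3.11.15, pandas). A name was detected where its median before the floor was at or over 32 in all 3 animals. Exiqon spots without a flag were averaged per probe, and normexp (limma 3.58.1, R 4.3.3) served as an alternative. Target sequences came from the deposited probe list of the array of animal 368 (3968 spots), whose paired spots differed by a median factor of 1.10. No groups were compared and no test was run, and 3 animals limit the precision. The summaries were checked on simulated data. Named were the 25 highest LC Sciences and 10 highest Exiqon names, up to 4 of each list and the 5 highest and lowest CVs, with others where said. The members and lists were chosen with earlier results of these data known.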

Additional observations from a re-analysis of the deposited data

Results flagged for a closer look

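Of 206 Exiqon probes that carry no name in the deposited files, 87 were above every negative control on all 3 blastema arrays, the brightest with a mean of 5239. They entered no comparison, since the files used here do not say what these probes read.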

How the results depend on the processing

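The number of names at or over the floor was 150, and 119 to 181 under the other settings, within 1.5 times. The share of the 10 leading names was 41.8% and moved by more than 1 SD over animals to 39.3% with the mean over probes, 46.0% with no floor and 40.1% with the highest probe of a name. The mean level of these 10 names was 10102, and became 11358 with the highest probe and 9388 with the geometric mean. The median CV was 25.02%, and 16.7% to 26.4% when an animal was left out, lowest without animal 368. The names at or over 32 were chosen anew each time, so these CVs cover different names. Without muscle names and miR-451, a setting added after the data were seen, it was 23.1%. Vertebrate names above the Exiqon negative controls numbered 545, and 344 over the mean plus 3 SD of those controls. Spearman's rho between platforms was 0.60, and 0.52 over all names on both arrays, 0.57 over names also above every negative control, and 0.56 to 0.61 with an animal left out. Of 125 values of single leading names 5 moved by more than their SD, all with the highest probe. No paired analysis was possible because the result comes from no test and a single group was described. Signals near the floor of 32, or near the Exiqon negative controls, have no reliable order.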
